A study of Homo sapiens with 32 samples.

Results

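ATF4 and 9 genes that act with it in the integrated stress response (ATF5, DDIT3, DDIT4, TRIB3, CHAC1, SESN2, PPP1R15A, CEBPB and NUPR1) were followed in RNA of human HEK293T and U2OS cells. The 10 genes were chosen by name, with earlier results of these data known, and each matched 1 row of a table of 60107 genes. By the annotation, ATF4 (ENSG00000128272) lies on chromosome 22, ATF5 (ENSG00000169136) on 19, DDIT3 (ENSG00000175197) on 12, DDIT4 (ENSG00000168209) on 10, TRIB3 (ENSG00000101255) on 20, CHAC1 (ENSG00000128965) on 15, SESN2 (ENSG00000130766) on 1, PPP1R15A (ENSG00000087074) on 19, CEBPB (ENSG00000172216) on 20 and NUPR1 (ENSG00000176046) on 16. HEK293T is a line derived from human embryonic kidney and U2OS a line derived from an osteosarcoma. The study asked how the topoisomerase I poison camptothecin (CPT) and loss of the DNA damage kinase ATM alter these cells. Its 32 libraries were labelled as HEK293T DMSO-treated (8 libraries), HEK293T Camptothecin-treated, HEK293T ATM KO, U2OS WT, U2OS ATM KO, U2OS Camptothecin-treated and U2OS DMSO-treated (4 each). The labels give a treatment of 24 h and a recovery of 48 h for HEK293T, and 72 h of growth without treatment for U2OS, although some U2OS libraries carry the label of CPT. The ATM KO cells of the study were made with a CRISPR/Cas9 plasmid and picked as individual clones. For HEK293T the paper describes RNA sequencing of the ATM inhibitor KU-55933 and not of a knockout, so libraries 18 to 21, labelled HEK293T ATM KO, are described here as the ATM inhibitor libraries.

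In the integrated stress response, kinases that sense unfolded protein, amino acid lack, double-stranded RNA or heme lack phosphorylate the initiation factor eIF2. Bulk translation then falls while translation of the ATF4 mRNA rises, and ATF4, a bZIP transcription factor, switches on genes of amino acid supply, redox balance and translation. ATF5, DDIT3 (also called CHOP) and CEBPB are bZIP factors that act beside it or after it. PPP1R15A (GADD34) brings a phosphatase to eIF2 and so ends the response, and the pseudokinase TRIB3 also restrains it. CHAC1 degrades glutathione, DDIT4 (REDD1) and SESN2 dampen mTORC1, and NUPR1 is a small stress-inducible chromatin protein. SESN2 is also a target of the tumour suppressor p53. Since ATF4 is controlled largely through its translation, mRNA levels do not report ATF4 protein.

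Promoter windows of the members were searched for short motifs, and the windows with a match are shown. Whether a match bears on the responses described below was not tested. RefSeq promoter windows on GRCh38.p14 were available for 9 of the 10 genes, NUPR1 being the exception, and the 250 bases before each start were searched on both strands. The C/EBP-ATF response element (CARE, TGATGNAA), which ATF4 binds with a C/EBP partner, was in 3.14% of all 35116 windows and among the members in CHAC1. The cAMP response element (CRE, TGACGTCA), which ATF factors can bind and which reads the same on both strands, was in 1.65% of windows and among the members in PPP1R15A. A relaxed endoplasmic reticulum stress element (CCAAT, then 10 bases of any kind, then CACG), a motif of ATF6 with NF-Y, was in 0.162% of windows and among the members in DDIT3. The motifs do not overlap each other in these windows, and such matches are descriptions of letters, not bound sites. Each window is given 5′ to 3′ on the strand of its gene with the match in capitals, which for CHAC1 and DDIT3 is the motif read on the opposite strand. The CHAC1 window lies at chr15:40953221-40953470 on the plus strand with the match beginning 209 bases before the gene's start. The PPP1R15A window lies at chr19:48872171-48872420 on the plus strand with the match beginning 58 bases before the start. The DDIT3 window lies at chr12:57520515-57520764 on the minus strand with the match beginning 90 bases before the start, and it is 1 of 2 windows listed for this gene, both with the match.
CHAC1: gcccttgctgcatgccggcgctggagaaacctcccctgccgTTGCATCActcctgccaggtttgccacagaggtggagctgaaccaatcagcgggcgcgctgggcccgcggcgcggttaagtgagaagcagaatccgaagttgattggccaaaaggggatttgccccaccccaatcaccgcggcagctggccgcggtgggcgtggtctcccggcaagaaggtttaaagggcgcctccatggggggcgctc
PPP1R15A: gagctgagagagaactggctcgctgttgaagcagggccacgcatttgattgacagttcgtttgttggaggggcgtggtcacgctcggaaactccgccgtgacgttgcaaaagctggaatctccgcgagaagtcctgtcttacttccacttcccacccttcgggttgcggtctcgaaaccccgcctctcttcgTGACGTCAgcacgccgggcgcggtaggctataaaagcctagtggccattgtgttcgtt
DDIT3: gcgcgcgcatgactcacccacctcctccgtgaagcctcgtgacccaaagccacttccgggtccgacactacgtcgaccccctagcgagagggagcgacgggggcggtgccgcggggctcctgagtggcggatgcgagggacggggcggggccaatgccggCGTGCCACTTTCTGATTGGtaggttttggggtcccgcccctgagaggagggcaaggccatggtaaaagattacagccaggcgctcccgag

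Labels and RNA disagreed in 14 of the 32 libraries, which bears on 2 of the 4 comparisons. The summed level of 10 genes that mark U2OS ran from 2819 to 6524 CPM (counts scaled by the library's total on genes) in libraries 1 to 8 and from 64.98 to 169 CPM in libraries 10 to 17, although libraries 2 to 8 were labelled HEK293T and libraries 10 to 16 U2OS. The 10 marker genes of HEK293T summed to 190.6 to 321 CPM in libraries 1 to 8 and to 1102 to 1620 CPM in libraries 10 to 17. Libraries 18 to 25 (U2OS-like list 85.9 to 152 CPM, HEK293T-like list 879.6 to 1030 CPM) and libraries 26 to 33 (4035 to 7960 and 313 to 365 CPM) matched their cell line. At most 4 of the U2OS genes were at 0 in a library of 10 to 17, and at most 3 of the HEK293T genes in a library of 1 to 8 or 26 to 33. Each set of 8 was therefore compared by library number. In libraries 10 to 17, the even-numbered ones (labelled U2OS ATM KO) were set against 11, 13 and 15 (labelled U2OS WT) and 17 (labelled HEK293T DMSO-treated). In libraries 1 to 8, the even-numbered ones (labelled HEK293T Camptothecin-treated) were set against 3, 5 and 7 (labelled HEK293T DMSO-treated) and 1 (labelled U2OS WT). The grouping by number takes the first set as HEK293T with CPT and the second as U2OS ATM KO, but no label says so, and the arms are called even-numbered and odd-numbered here. ATM itself ran from 21.2 to 39.8 CPM in libraries 10 to 17, 54.6 to 82.0 in 18 to 25, 34.2 to 68.4 in 1 to 8 and 55.03 to 87.7 in 26 to 33, and its adjusted p was 0.305, 0.977, 0.255 and 0.242 between the arms. A count at the 3′ end of the ATM mRNA does not check a frameshift or an inhibitor.

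A library held between 1232674 and 6362433 counts on genes (median 3359464), so that 3 counts, the floor taken for detection, equal 0.472 to 2.43 CPM. Such floors cover counting error only. All 10 members were above 1 count in at least 2 libraries of every comparison and entered each test. A gene is called here when its absolute log2 fold change, estimated after TMM scaling, is over 1 and its adjusted p is under 0.05. The paper describes 4 independent repeats, but the labels neither number nor pair the libraries, so p-values measure the spread between these libraries. In bulk RNA, fewer cells that express a gene and less RNA per cell cannot be told apart.

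**Figure D1:**
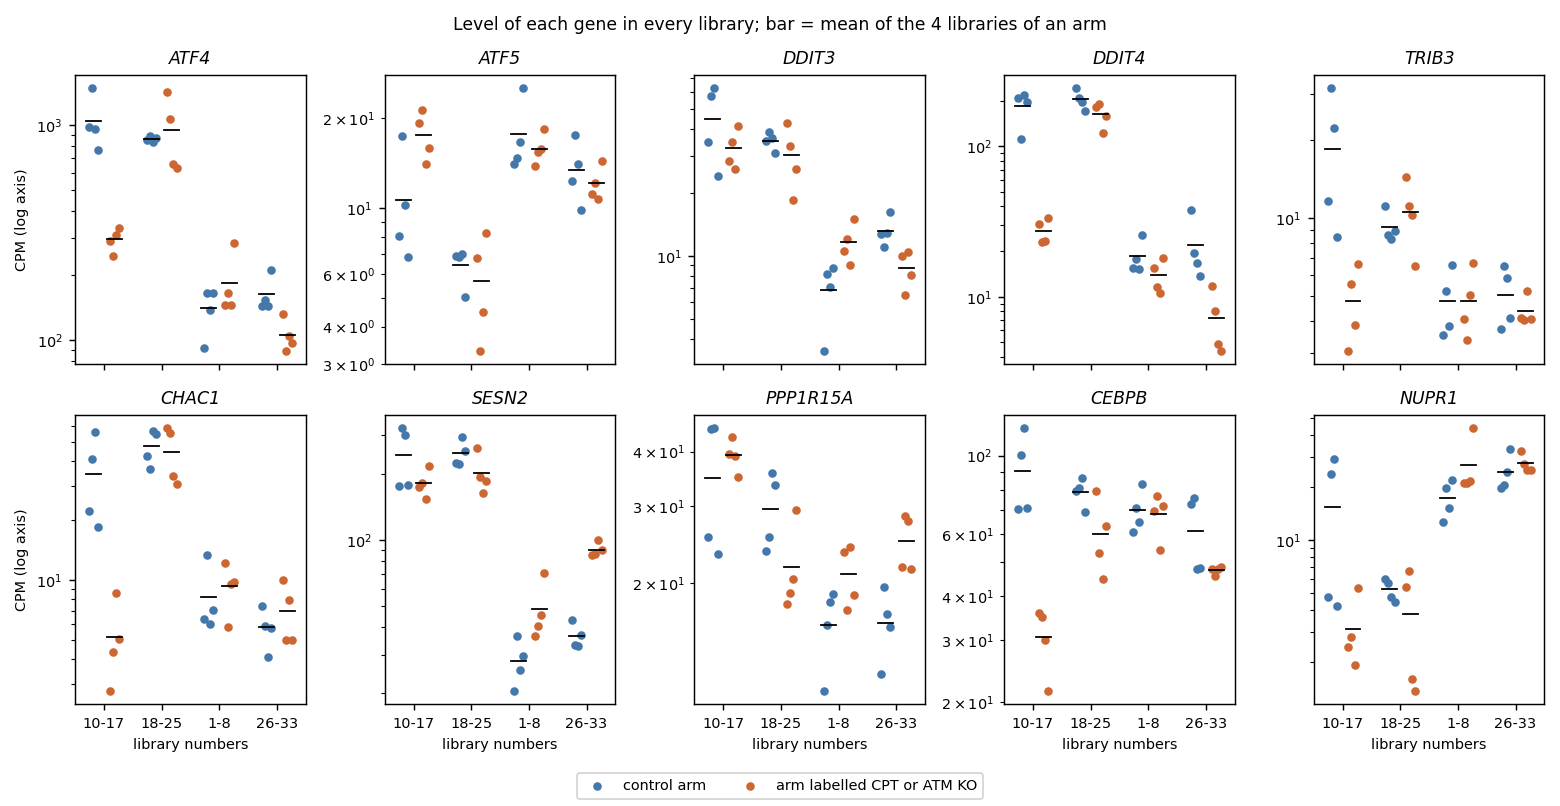
Level of each of the 10 genes in every library, in CPM on a log axis, with the libraries of a set grouped along the horizontal axis by number. Blue points are the control arm (odd-numbered in 1 to 8 and 10 to 17), orange points the arm labelled CPT or ATM KO, and bars the mean of 4 libraries. ATF4 in libraries 10 to 17 separates into 247 to 332 CPM in the even-numbered arm and 767 to 1491 CPM in the odd-numbered arm.

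Of the 4 comparisons within a set of libraries, libraries 10 to 17, with a HEK293T profile, held the most calls among these genes. Of the 10 genes, 6 were called lower in the even-numbered arm (ATF4, DDIT4, TRIB3, CHAC1, CEBPB and NUPR1) and 0 higher. Over all 19464 genes tested in this set 4.45% were called lower and 9.52% higher, 14% in all. The median log2 fold change of the 10 genes was -1.74 beside 0.041 over all genes. In 5 of the 10 (the 6 without NUPR1) the arms did not overlap, which held for 31% of all genes tested.

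ATF4, the central factor, read 290.3, 247, 308 and 332 CPM in libraries 10, 12, 14 and 16 and 976, 1491, 959.9 and 767 CPM in libraries 11, 13, 15 and 17. Every even-numbered library lay below every odd-numbered one. ATF4 mRNA was 3.64-fold lower in the even-numbered arm, with a log2 fold change of -1.86 ± 0.17 (SE, n = 4 against 4) and an adjusted p of 1.17e-08. ATF4 has 4 processed copies in the genome annotation (ATF4P1 to ATF4P4), among which reads of so similar a sequence may be divided. The share of counts that the authors' pipeline put in its summary rows, and not on a gene, also separated the arms, at 17.02% to 19.8% in the even-numbered and 10.9% to 12.4% in the odd-numbered libraries, and its part in the changes of this set was not tested.

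Of the factors that act beside ATF4, CEBPB fell, ATF5 moved the other way and DDIT3 did not pass the test. CEBPB read 35.8, 34.9, 30.1 and 21.5 CPM in the even-numbered and 70.6, 100.4, 119.8 and 70.9 CPM in the odd-numbered libraries, with a log2 fold change of -1.61 ± 0.18 (SE, n = 4 against 4) and an adjusted p of 3.70e-07. The arms did not overlap, and libraries 13 and 15 were the highest. ATF5 read 19.3, 21.3, 14.1 and 15.9 CPM against 8.08, 17.4, 10.2 and 6.87 CPM, overlapping through library 13. It rose by adjusted p alone, with a log2 fold change of 0.67 ± 0.24 (SE, n = 4 against 4) and an adjusted p of 0.0348. Without library 13 the ATF5 change was 1.06 (adjusted p = 2.74e-04), whereas it missed the threshold without library 10, 11, 12, 15 or 17 (adjusted p 0.0836 to 0.121) or by the label groups (adjusted p = 0.472). DDIT3, the CHOP factor, read 28.2, 34.9, 25.9 and 41.3 CPM against 34.7, 57.5, 63.1 and 23.9 CPM, a log2 fold change of -0.48 (95% interval -0.93 to -0.017, adjusted p = 0.1). Library 17 was the lowest of its arm for DDIT3, and without it the change was -0.69 (adjusted p = 0.0048). With no filter on low counts it also passed, at -0.49 (adjusted p = 0.00635). The annotation places exons of CEBPB-AS1, of IL4I1 and NUP62, and of MARS and MBD6 opposite CEBPB, ATF5 and DDIT3, and whether counting used strand is not given in the sources used here. Exons of MIR4751 and of AC022506.1 overlap ATF5 and DDIT3 on the same strand, which a strand setting would not separate.

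The effector genes CHAC1, DDIT4 and NUPR1 had the steepest falls of the 10. CHAC1, which degrades glutathione, read 2.76, 4.32, 8.64 and 5.03 CPM in the even-numbered and 22.2, 40.95, 56 and 18.6 CPM in the odd-numbered libraries. It was 6.79-fold lower, with a log2 fold change of -2.76 ± 0.32 (SE, n = 4 against 4) and an adjusted p of 5.62e-07. DDIT4, which dampens mTORC1, read 30.3, 23.1, 23.4 and 33.2 CPM against 209.5, 112, 219 and 198 CPM. DDIT4 was 6.69-fold lower, with a log2 fold change of -2.74 ± 0.17 (SE, n = 4 against 4) and an adjusted p of 7.80e-11, and its odd-numbered arm was lowest in library 13, unlike that of CHAC1. Exons of DDIT4-AS1 lie opposite DDIT4. NUPR1 read 2.45, 2.78, 1.92 and 5.34 CPM against 4.72, 24.03, 29.1 and 4.21 CPM, with a log2 fold change of -2.204 ± 0.49 (SE, n = 4 against 4) and an adjusted p of 0.0013. The arms of NUPR1 overlapped, since libraries 11 and 17 stood close to the even-numbered libraries while 13 and 15 stood far above, and its even-numbered values rested on 6 to 34 counts.

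SESN2, which dampens mTORC1 and answers to both ATF4 and p53, read 175, 182, 154 and 218 CPM against 176, 323, 300.4 and 178 CPM. It fell by adjusted p alone, with a log2 fold change of -0.45 ± 0.17 (SE, n = 4 against 4) and an adjusted p of 0.0432, and missed the threshold without library 10, 12, 13, 14 or 15 (adjusted p 0.0859 to 0.207), with DESeq2 (adjusted p = 0.105), with RLE scaling (adjusted p = 0.0649), with the filterByExpr filter (adjusted p = 0.114) and by the label groups (adjusted p = 0.86). Of the genes that restrain the response, TRIB3 was called and PPP1R15A did not pass. TRIB3 read 3.06, 5.56, 3.84 and 6.601 CPM against 11.6, 31.8, 22.2 and 8.42 CPM, 3.83-fold lower with a log2 fold change of -1.94 ± 0.34 (SE, n = 4 against 4) and an adjusted p of 1.20e-04. PPP1R15A, the eIF2 phosphatase subunit, read 39.5, 43.2, 39.02 and 35.05 CPM against 25.4, 45.2, 45.3 and 23.3 CPM, a log2 fold change of 0.13 (95% interval -0.26 to 0.52, adjusted p = 0.623). Its odd-numbered libraries split into 11 and 17 below the even-numbered arm and 13 and 15 above it.

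Libraries 13 and 15 were the 2 highest of the odd-numbered arm for 8 of the 10 genes, all except ATF4 and DDIT4. For ATF4 library 13 was highest and library 11 followed, and for DDIT4 library 13 was lowest. On the mean of the 10 standardized levels, libraries 13 and 15 stood at 1.77 and 1.64 and libraries 11 and 17 at 0.165 and -0.235, with the even-numbered libraries between -1.04 and -0.623. The counts on genes were 5909163 and 4500361 in libraries 13 and 15 and 5937539 and 4511856 in 11 and 17, so neither pair was the deeper. With library 13 left out 7 genes were called (ATF5 joined), and 6 were called with any other library of the set left out, library 17 included. By the deposited label groups, in which library 1 (U2OS profile) takes the place of library 17, 4 genes were called, with ATF4 at -1.62 (adjusted p = 0.136) and TRIB3 at -1.94 (adjusted p = 0.0654) no longer past the threshold.

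**Figure D2:**
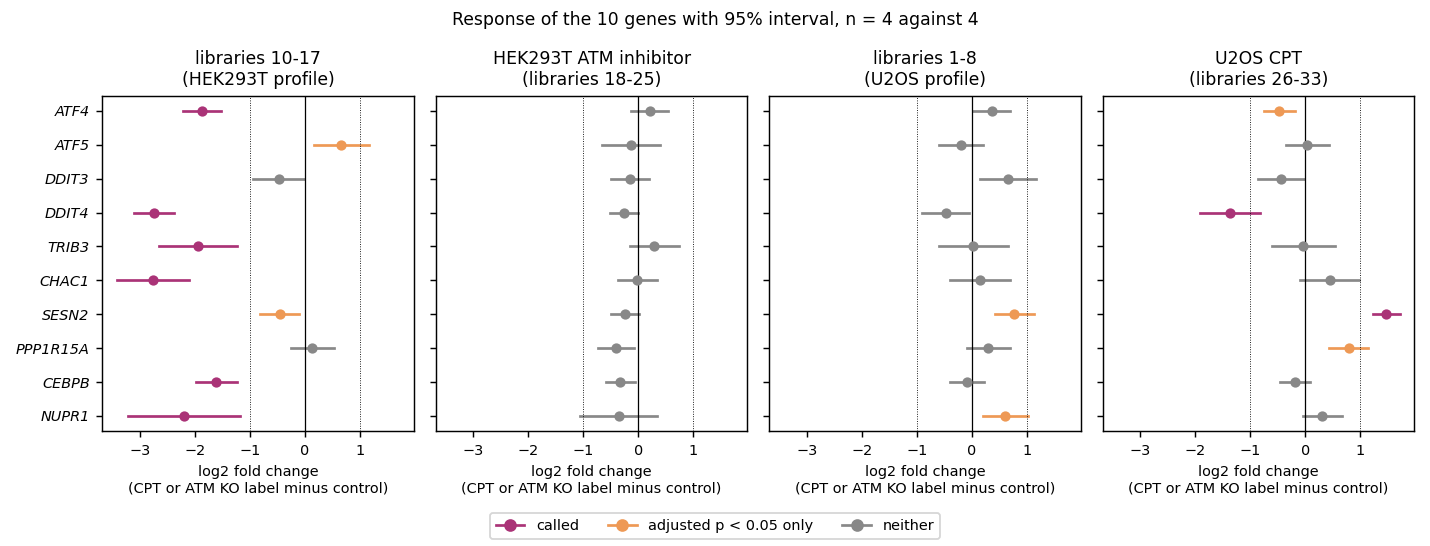
Log2 fold change of each gene (horizontal axis, arm labelled CPT or ATM KO minus control) with its 95% interval in the 4 comparisons, from 4 against 4 libraries each. Magenta marks called genes, orange those with an adjusted p under 0.05 but an absolute log2 fold change of 1 or less, and grey the rest, and dotted lines mark a log2 fold change of -1 and 1. Libraries 10 to 17 hold 6 called genes, U2OS with CPT 2, and the other panels 0.

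In U2OS cells labelled CPT (libraries 26 to 29) against DMSO (libraries 30 to 33), SESN2 rose and DDIT4 fell, and these 2 of 10 genes were the ones called. Over all 19080 genes tested 13.5% were called, 7.97% higher and 5.5% lower. The arms did not overlap for 5 of the 10 genes (ATF4, DDIT3, DDIT4, SESN2 and PPP1R15A), beside 31.3% of all genes. The median log2 fold change of the 10 was 0.0017, beside 0.0079 over all genes.

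SESN2 read 85.6, 86.2, 99.4 and 89.8 CPM in libraries 26, 27, 28 and 29 and 42.9, 33.03, 32.8 and 37.01 CPM in libraries 30, 31, 32 and 33. The arms lay far apart, and SESN2 was 2.78-fold higher, with a log2 fold change of 1.48 ± 0.12 (SE, n = 4 against 4) and an adjusted p of 3.06e-11. DDIT4, which acts on the same kinase complex, went the other way at 11.8, 8.06, 4.85 and 4.37 CPM against 37.97, 19.6, 16.7 and 13.7 CPM. It was 2.59-fold lower, with a log2 fold change of -1.37 ± 0.27 (SE, n = 4 against 4) and an adjusted p of 1.36e-04. PPP1R15A rose by adjusted p alone, from 16.2 ± 3.01 to 24.9 ± 3.75 CPM (SD, n = 4), with a log2 fold change of 0.79 ± 0.17 (SE, n = 4 against 4) and an adjusted p of 5.62e-04.

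ATF4 read 132, 89.3, 104 and 97.3 CPM with CPT and 144, 154, 145 and 211 CPM with DMSO. The arms did not overlap, library 33 stood above the other DMSO libraries, and ATF4 fell by adjusted p alone, with a log2 fold change of -0.47 ± 0.14 (SE, n = 4 against 4) and an adjusted p of 0.00961. Without library 33 the change was -0.28 (adjusted p = 0.0689) and without library 27 it was -0.41 (adjusted p = 0.0535), and with all 32 libraries in one fit -0.48 (adjusted p = 0.0696), so the call by adjusted p was lost in each case. DDIT3 read 10, 6.51, 10.4 and 8.11 CPM against 12.7, 11.01, 12.9 and 16.1 CPM, a log2 fold change of -0.44 (95% interval -0.86 to -0.016, adjusted p = 0.107). CEBPB read 47.7, 45.6, 47.8 and 48.4 CPM with CPT, a span of under 3 CPM, while its DMSO libraries split into 73.2 and 75.7 CPM (libraries 30 and 31) and 47.8 and 48.1 CPM (libraries 32 and 33), and its log2 fold change was -0.18 (95% interval -0.45 to 0.093, adjusted p = 0.331).

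The other 4 genes did not pass in U2OS with CPT. ATF5 averaged 12.1 ± 1.61 CPM with CPT and 13.4 ± 3.23 CPM with DMSO, a log2 fold change of 0.038 (95% interval -0.36 to 0.44, adjusted p = 0.911), whose sign differs from that of the CPM since folds are TMM-scaled. TRIB3 averaged 4.35 ± 0.564 and 5.05 ± 1.37 CPM, a log2 fold change of -0.035 (95% interval -0.61 to 0.54, adjusted p = 0.948). CHAC1 averaged 6.98 ± 2.46 and 5.78 ± 1.35 CPM, a log2 fold change of 0.45 (95% interval -0.092 to 0.98, adjusted p = 0.209). Both genes had few counts, with 12 and 14 in their lowest libraries. NUPR1 averaged 27.6 ± 3.35 and 24.6 ± 6.23 CPM, a log2 fold change of 0.31 (95% interval -0.041 to 0.66, adjusted p = 0.178), and without library 33 it was 0.54 (adjusted p = 0.00718).

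In HEK293T cells of the ATM inhibitor comparison (libraries 18 to 21 against DMSO libraries 22 to 25), none of the 10 genes was called, and edgeR's quasi-likelihood test called 0% of 18413 genes. A single gene of the table had an adjusted p under 0.05 (0.00543%, lower), and it was not 1 of the 10. The arms did not overlap for 0 of the 10, beside 3.07% of all genes. At an unadjusted p under 0.05 there were 1019 genes (5.53%), among them DDIT4, PPP1R15A and CEBPB of the 10, and the likelihood ratio test called 2 genes and DESeq2 0. The smallest adjusted p of the 10 was that of PPP1R15A. It read 17.9, 18.98, 20.4 and 29.5 CPM against 23.6, 25.4, 35.8 and 33.5 CPM, a log2 fold change of -0.41 (95% interval -0.73 to -0.082, adjusted p = 0.855). CEBPB was at -0.33 (95% interval -0.59 to -0.061, adjusted p = 0.865) and DDIT4 at -0.26 (95% interval -0.51 to -0.0077, adjusted p = 0.887) on the log2 scale. For these genes the intervals stay within 1 log2 unit of 0, the size used to call a gene.

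In CPM, ATF4, ATF5, DDIT3, TRIB3, CHAC1, SESN2, CEBPB and NUPR1 had a larger SD in the ATM inhibitor libraries than in the DMSO libraries. DDIT4 and PPP1R15A did not. ATF4 read 1431, 1069, 658 and 634 CPM in libraries 18, 19, 20 and 21 and 852, 891, 838 and 870.3 CPM in libraries 22, 23, 24 and 25, a log2 fold change of 0.21 (95% interval -0.13 to 0.55, adjusted p = 0.94). Libraries 18 and 19 lay above every DMSO library and 20 and 21 below, with SDs of 379 and 22.97 CPM in the 2 arms. CHAC1 read 58.6, 55.1, 33.5 and 30.5 CPM against 42.2, 36.6, 56.4 and 54.5 CPM, and NUPR1 read 5.43, 6.63, 1.597 and 1.37 CPM against 5.98, 5.71, 4.76 and 4.44 CPM. In both genes libraries 18 and 19 again lay above 20 and 21, and the NUPR1 values of 20 and 21 rest on 5 and 4 counts. DDIT3 read 42.9, 33.5, 18.5 and 26.03 CPM against 35.3, 38.8, 36.3 and 30.8 CPM, a log2 fold change of -0.15 (95% interval -0.49 to 0.196, adjusted p = 0.963). The remaining log2 fold changes were -0.015 (95% interval -0.36 to 0.33, adjusted p = 0.995) for CHAC1, -0.36 (95% interval -1.06 to 0.35, adjusted p = 0.951) for NUPR1, 0.29 (95% interval -0.16 to 0.74, adjusted p = 0.939) for TRIB3, -0.13 (95% interval -0.65 to 0.4, adjusted p = 0.977) for ATF5 and -0.24 (95% interval -0.496 to 0.018, adjusted p = 0.901) for SESN2. Without library 21, 14 genes of the whole table were called in place of 0, but none of the 10.

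In libraries 1 to 8, the set with a U2OS profile, none of the 10 genes was called, beside 5.24% of 18591 genes (2.8% higher and 2.44% lower). By adjusted p alone SESN2 and NUPR1 rose in the even-numbered arm, 2 of 10, beside 13% of all genes (6.43% higher). SESN2 read 36.5, 40.4, 45.3 and 70.8 CPM in libraries 2, 4, 6 and 8 and 20.5, 36.3, 25.5 and 29.4 CPM in libraries 1, 3, 5 and 7. Every even-numbered library lay above every odd-numbered one, narrowly so for 2 and 3, and the test gave a log2 fold change of 0.77 ± 0.18 (SE, n = 4 against 4) and an adjusted p of 0.00142. NUPR1 read 21.1, 21.2, 21.9 and 43.8 CPM against 12.7, 19.9, 15.3 and 22.1 CPM, with a log2 fold change of 0.61 ± 0.202 (SE, n = 4 against 4) and an adjusted p of 0.0333. Library 8 alone was far above the odd-numbered arm. Without library 8 the NUPR1 change was 0.26 (adjusted p = 0.414), and it also missed the threshold without library 1 (adjusted p = 0.113) or 5 (adjusted p = 0.146), with DESeq2 (adjusted p = 0.128), with all 32 libraries in one fit (adjusted p = 0.203) or with the filterByExpr filter (adjusted p = 0.0505). Without libraries 1 and 2 together, the shallowest of all, NUPR1 was at 0.61 (adjusted p = 0.0809) and SESN2 at 0.79 (adjusted p = 0.00741).

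ATF4 read 146, 166, 145 and 284 CPM against 92.5, 166, 138 and 166 CPM in the even-numbered and odd-numbered libraries, a log2 fold change of 0.36 (95% interval 0.028 to 0.69, adjusted p = 0.154). The arms overlapped, with library 8 highest and library 1, of the second lowest depth of all libraries, lowest. DDIT3 read 10.6, 12.03, 9.03 and 14.9 CPM against 3.53, 8.22, 7.12 and 8.72 CPM, a log2 fold change of 0.66 (95% interval 0.15 to 1.17, adjusted p = 0.0779), and its arms and those of SESN2 did not overlap (2 of 10, beside 13.6% of all genes). DDIT4 read 15.4, 11.6, 10.6 and 18.2 CPM against 15.5, 17.7, 15.3 and 25.6 CPM, a log2 fold change of -0.48 (95% interval -0.897 to -0.055, adjusted p = 0.133), and without library 8 it was -0.68 (adjusted p = 0.0233). Library 8 held the highest value of the even-numbered arm for ATF4, ATF5, DDIT3, DDIT4, TRIB3, SESN2 and NUPR1. The remaining log2 fold changes were 0.303 (95% interval -0.092 to 0.699, adjusted p = 0.354) for PPP1R15A, 0.15 (95% interval -0.39 to 0.69, adjusted p = 0.805) for CHAC1, 0.031 (95% interval -0.599 to 0.66, adjusted p = 0.971) for TRIB3, -0.084 (95% interval -0.395 to 0.23, adjusted p = 0.808) for CEBPB and -0.2003 (95% interval -0.603 to 0.203, adjusted p = 0.598) for ATF5. By the deposited label groups, in which library 17 (HEK293T profile) takes the place of library 1, SESN2 was at -1.39 (adjusted p = 0.125), DDIT4 at -2.95 (adjusted p = 0.0349) and NUPR1 at 1.504 (adjusted p = 0.0832), so the sign of SESN2 turned.

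The responses were then compared with each other by testing the difference of 2 log2 fold changes, between sets that share no library. Libraries 10 to 17 differed from U2OS with CPT for 7 of the 10 genes, beside 20.3% of all 22363 genes tested. The differences (libraries 10 to 17 minus U2OS with CPT) were -3.202 ± 0.45 (SE, adjusted p = 3.49e-07) for CHAC1, -2.48 ± 0.51 (SE, adjusted p = 2.41e-04) for NUPR1, -1.93 ± 0.23 (SE, adjusted p = 6.81e-09) for SESN2, -1.89 ± 0.49 (SE, adjusted p = 0.00367) for TRIB3, -1.44 ± 0.23 (SE, adjusted p = 3.78e-06) for CEBPB, -1.398 ± 0.23 (SE, adjusted p = 9.04e-06) for ATF4 and -1.36 ± 0.34 (SE, adjusted p = 0.00266) for DDIT4. DDIT4 was called lower in both sets, while SESN2 was called higher in U2OS and was lower by adjusted p alone in libraries 10 to 17. The DDIT4 difference missed the threshold without library 26, at -1.03 (adjusted p = 0.0519). The PPP1R15A difference was -0.66 ± 0.27 (SE, adjusted p = 0.0743), and passed without library 11 (adjusted p = 0.0319) or 17 (adjusted p = 0.0145) and with no filter (adjusted p = 0.0257), and that of ATF5 passed without library 13 (adjusted p = 0.00676). The 2 sets differ in cell line profile and in labelled treatment at once, which cannot be told apart here.

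Between the sets with a HEK293T profile, libraries 10 to 17 differed from the ATM inhibitor comparison for 5 of the 10 genes, beside 16.4% of 20849 genes. The differences were -2.75 ± 0.399 (SE, adjusted p = 5.79e-06) for CHAC1, -2.48 ± 0.23 (SE, adjusted p = 9.56e-10) for DDIT4, -2.23 ± 0.45 (SE, adjusted p = 5.42e-04) for TRIB3, -2.08 ± 0.27 (SE, adjusted p = 7.49e-07) for ATF4 and -1.29 ± 0.24 (SE, adjusted p = 1.90e-04) for CEBPB. NUPR1 differed by -1.84 ± 0.74 (SE, adjusted p = 0.0857), short of the threshold. It passed with all 32 libraries in one fit (adjusted p = 0.0426), by the likelihood ratio test (adjusted p = 0.0279), with no filter (adjusted p = 1.25e-04) and without library 11, 16, 17 or 21 (adjusted p 0.0166 to 0.0436). Without library 13 the differences of ATF5 (adjusted p = 0.0101) and PPP1R15A (adjusted p = 0.0407) passed too. Between the sets with a U2OS profile, libraries 1 to 8 differed from U2OS with CPT for 3 of the 10 genes, beside 17.7% of 20539 genes. The differences (libraries 1 to 8 minus U2OS with CPT) were 1.09 ± 0.33 (SE, adjusted p = 0.0126) for DDIT3, 0.83 ± 0.23 (SE, adjusted p = 0.00639) for ATF4 and -0.69 ± 0.22 (SE, adjusted p = 0.0223) for SESN2. SESN2 rose in both sets and rose less in libraries 1 to 8, but that difference missed the threshold without library 2 (adjusted p = 0.0501), 3 (adjusted p = 0.0979) or 31 (adjusted p = 0.0514) and with all 32 libraries in one fit (adjusted p = 0.0758). The DDIT4 difference was 0.903 ± 0.34 (SE, adjusted p = 0.059), and passed without library 6, 7, 26, 31, 32 or 33 (adjusted p 0.00981 to 0.0483) and with no filter (adjusted p = 0.0238). The labels of libraries 1 to 8 do not settle their condition, so what sets them apart from U2OS with CPT cannot be told here.

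The 2 cell lines held these genes at different levels under DMSO. In U2OS (libraries 30 to 33) against HEK293T (libraries 22 to 25), 5 of the 10 genes were called lower and 2 higher, beside 18.1% and 21.8% of 19739 genes (39.9% in all). ATF4 averaged 164 ± 32.1 CPM in U2OS and 863 ± 22.97 CPM in HEK293T (SD, n = 4), 4.48-fold lower with a log2 fold change of -2.16 ± 0.12 (SE, n = 4 against 4) and an adjusted p of 9.15e-17. Each of the 4 U2OS libraries lay below each HEK293T library, and the lines did not overlap for 9 of the 10 genes, all but CEBPB (55.5% of all genes). DDIT4 was 8.13-fold lower (22 ± 10.9 against 205 ± 31.1 CPM, adjusted p = 6.21e-17), CHAC1 7.01-fold lower (5.78 ± 1.35 against 47.4 ± 9.59 CPM, adjusted p = 6.99e-15) and SESN2 5.83-fold lower (36.4 ± 4.73 against 249 ± 34.8 CPM, adjusted p = 1.30e-18). DDIT3 was 2.26-fold lower (13.2 ± 2.13 against 35.3 ± 3.35 CPM, adjusted p = 8.87e-08). The 2 genes called higher in U2OS were NUPR1, 5.58-fold (24.6 ± 6.23 against 5.22 ± 0.739 CPM, adjusted p = 4.49e-12), and ATF5, 2.39-fold (13.4 ± 3.23 against 6.45 ± 0.943 CPM, adjusted p = 5.43e-06). With these, 9 of the 10 had an adjusted p under 0.05, beside 62.1% of all genes. PPP1R15A and TRIB3 were lower by adjusted p alone, at log2 fold changes of -0.65 (adjusted p = 0.00154) and -0.65 (adjusted p = 0.0206), and TRIB3 missed the threshold without library 22, 30 or 33 (adjusted p 0.0591 to 0.0916), with DESeq2 (adjusted p = 0.0693) or with all 32 libraries in one fit (adjusted p = 0.0751). CEBPB was at -0.16 (95% interval -0.42 to 0.104, adjusted p = 0.291). Both arms serve as controls of comparisons above, so these levels are not independent of those.

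**Figure D3:**
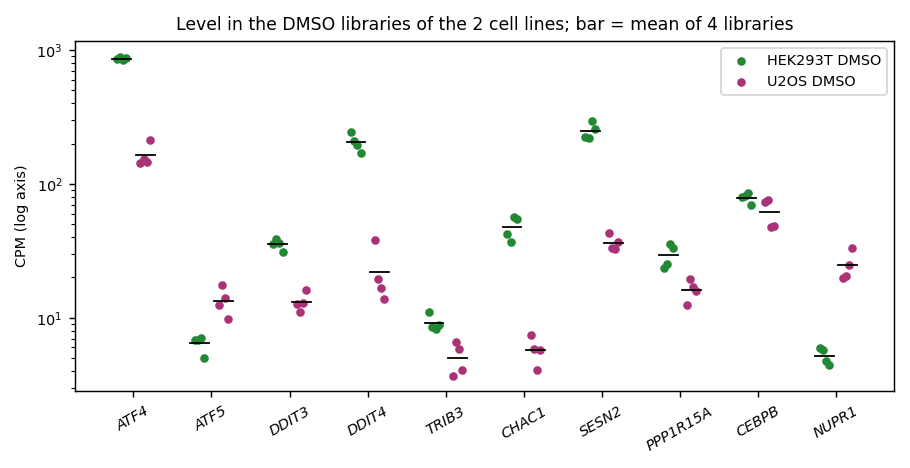
Level of each gene in the DMSO libraries of HEK293T (green, libraries 22 to 25) and U2OS (purple, libraries 30 to 33), in CPM on a log axis, with bars at the mean of 4 libraries. ATF4 sits at 838 to 891 CPM in HEK293T and 144 to 211 CPM in U2OS, while NUPR1 and ATF5 sit higher in U2OS.

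The levels were also ordered over all 8 arms, as a description. ATF4 was highest in the odd-numbered arm of libraries 10 to 17 (1048 CPM), then in the ATM inhibitor arm (948 CPM) and its DMSO arm (863 CPM), whose ranges overlapped with their neighbours. The even-numbered arm of libraries 10 to 17 followed at 294.5 CPM without overlap with the DMSO arm above it. The 4 arms with a U2OS profile came last, from 185 to 106 CPM, each overlapping its neighbour, and the highest of them (library 8, 284 CPM) overlapped the even-numbered arm above. CHAC1 showed another order. Its 3 upper arms averaged 47.4, 44.5 and 34.5 CPM with overlap, its 4 arms of U2OS profile 9.32 to 5.78 CPM with overlap, and the even-numbered arm of libraries 10 to 17, of HEK293T profile, came last at 5.19 CPM, overlapping the U2OS arms. SESN2 kept all 4 arms of HEK293T profile (182 to 249 CPM) above all 4 of U2OS profile (27.9 to 90.3 CPM), with no overlap between the even-numbered arm of libraries 10 to 17 and U2OS with CPT, nor between U2OS with CPT and the even-numbered arm of libraries 1 to 8. NUPR1 was in the reverse order, with U2OS-profile arms at 17.5 to 27.6 CPM and HEK293T-profile arms at 3.12 to 15.5 CPM, and ranges that overlapped from each arm to the next.

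Other genes of the pathway were described by lists, which overlap in a few genes and were also chosen with earlier results of these data known. Of 36 further ATF4 target genes, 35 were tested in libraries 10 to 17, where 23 were called lower and 1 higher, beside 4.45% and 9.52% of all genes. Their median log2 fold change was -1.46, beside 0.041 over all genes. By adjusted p alone 31 were lower and 2 higher, beside 17.3% and 17.6% of all genes. PSAT1, of serine synthesis, averaged 71.2 ± 3.01 CPM in the even-numbered and 354 ± 54.8 CPM in the odd-numbered arm, with a log2 fold change of -2.34 ± 0.13 (SE, n = 4 against 4) and an adjusted p of 1.08e-11. SLC7A11, the cystine transporter, averaged 21.04 ± 3.86 and 225 ± 75.2 CPM, with a log2 fold change of -3.47 ± 0.21 (SE, n = 4 against 4) and an adjusted p of 3.76e-11. ASNS, asparagine synthetase, averaged 29.9 ± 4.45 and 265 ± 95.6 CPM, with a log2 fold change of -3.17 ± 0.205 (SE, n = 4 against 4) and an adjusted p of 1.02e-10. The 1 gene called higher, named after its values were seen, was GDF15, a secreted stress cytokine that is also on the p53 list, at a log2 fold change of 2.94 (adjusted p = 2.91e-06).

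In libraries 10 to 17, 4.45% of all genes were called lower and 9.52% higher, the shares beside which the list counts below stand. Upstream of ATF4, 4 of 19 genes for eIF2 kinases and initiation machinery were called lower and 0 higher, with a median log2 fold change of -0.30. The 4 genes were EIF2A (-1.12, adjusted p = 1.28e-07), an initiation factor apart from eIF2, OMA1 (-1.203, adjusted p = 7.92e-06), the mitochondrial protease that starts the DELE1 signal, IMPACT (-1.01, adjusted p = 4.07e-06), an inhibitor of the kinase GCN2, and EIF2D (-1.01, adjusted p = 2.10e-04), the last of these named after its values were seen. None of the 4 is an eIF2 kinase. Of 10 tested paralogs of the members 0 were called, with SESN3 higher (0.81, adjusted p = 3.20e-05) and CEBPG lower (-0.93, adjusted p = 1.10e-04) by adjusted p alone. Of 18 genes of the IRE1 and ATF6 branches, which belong to the unfolded protein response beside the eIF2 kinase PERK, XBP1 was called lower (-1.25, adjusted p = 4.51e-06) and 0 higher. The p53 targets moved the other way, with 6 of 18 called higher and 0 lower (median 0.71), led by TP53INP1 (2.53, adjusted p = 1.99e-09), CDKN1A (2.17, adjusted p = 8.79e-08) and MDM2 (1.14, adjusted p = 3.22e-07).

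In U2OS with CPT the ATF4 targets were mixed, with 2 of 34 called higher and 3 lower, beside 7.97% and 5.5% of all genes. Their median was -0.043, beside 0.0079 over all genes. GDF15 rose from 30.3 ± 8.13 to 334 ± 50.9 CPM (log2 fold change 3.63, adjusted p = 8.28e-18) and ATF3, a stress-induced bZIP factor, from 8.1 ± 2.39 to 37.4 ± 2.33 CPM (2.38, adjusted p = 2.62e-12). SLC7A11 fell from 138 ± 23.2 to 32.9 ± 4.12 CPM (-1.89, adjusted p = 8.54e-13), as did SLC6A9 (-1.61) and PHGDH (-1.16), both named after their values were seen. Among paralogs, TRIB2 (-2.19) and SESN3 (-1.19) fell while TRIB1 (1.37) and, named after its values were seen, SESN1 (1.44) rose. SESN1 and SESN2, both p53 targets, rose where SESN3 fell. Of the p53 list 13 of 18 were called higher and 0 lower, with a median of 1.51, CDKN1A at 2.24 (adjusted p = 1.85e-16) and MDM2 at 2 (adjusted p = 1.17e-15). The IRE1 and ATF6 genes had 0 of 18 called, but 12 were higher and 1 lower by adjusted p alone (16.6% and 15.3% of all genes), CRELD2 at 0.69, DNAJB9 at 0.81 and DNAJC3 at 0.59. Of 19 eIF2 genes 0 were called, with 3 higher and 2 lower by adjusted p alone, among them DNAJC3, which is on both lists, EIF2B3 (0.58, adjusted p = 0.0105) and EIF2AK1, the heme-sensing kinase (-0.34, adjusted p = 0.025).

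In the ATM inhibitor comparison 0 genes of any list were called or had an adjusted p under 0.05, the medians of these 5 lists ran from -0.17 to -0.016 and that of the 10 genes was -0.19, with the smallest adjusted p at 0.753 (ATF3 and CEBPG). In libraries 1 to 8, GDF15 was called higher (1.25, adjusted p = 1.64e-07), the single call of the ATF4 target and p53 lists, and the other lists had 0. By adjusted p alone 5 of 18 IRE1 and ATF6 genes were lower and 0 higher (6.56% and 6.43% of all genes), CRELD2 at -0.71, XBP1 at -0.705 and DNAJB11 at -0.66. EIF2B3 was higher (0.82, adjusted p = 4.31e-04), SESN1 was higher (0.69) and TRIB2 (-0.55) and CEBPG (-0.58) were lower. Of the ATF4 targets 4 were higher and 2 lower by adjusted p alone, SLC7A5, an amino acid transporter, at -0.71 and JDP2, a bZIP repressor, at 0.68.

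Between the lines under DMSO, 18 of 34 ATF4 targets were called lower in U2OS and 1 higher (median -1.08). PSAT1 averaged 27.9 ± 7.897 CPM in U2OS and 348 ± 61.2 CPM in HEK293T, ALDH1L2, a mitochondrial folate enzyme, 4.66 ± 1.21 and 99.5 ± 19.1 CPM, and STC2, a secreted glycoprotein, was at 0 to 1.03 CPM in the U2OS libraries and at 386 ± 35.8 CPM in HEK293T. Of the IRE1 and ATF6 list 6 of 18 were called higher in U2OS and 0 lower, beside 21.8% and 18.1% of all genes, and by adjusted p alone 11 were higher and 4 lower. DNAJB11, CALR and CRELD2, proteins of the endoplasmic reticulum that serve folding, were higher by 2.04, 1.55 and 1.73 on the log2 scale. Of 19 eIF2 genes 2 were called higher and 5 lower, and by adjusted p alone 8 were higher and 8 lower, beside 32% and 30.1% of all genes. EIF2S3, the gamma subunit of eIF2, was at -2.28, IMPACT at -1.78 and EIF2D at -2.11. Of 10 paralogs 3 were called higher and 3 lower, and of 18 p53 targets 7 higher and 1 lower, the lower being SESN2.

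**Figure D4:**
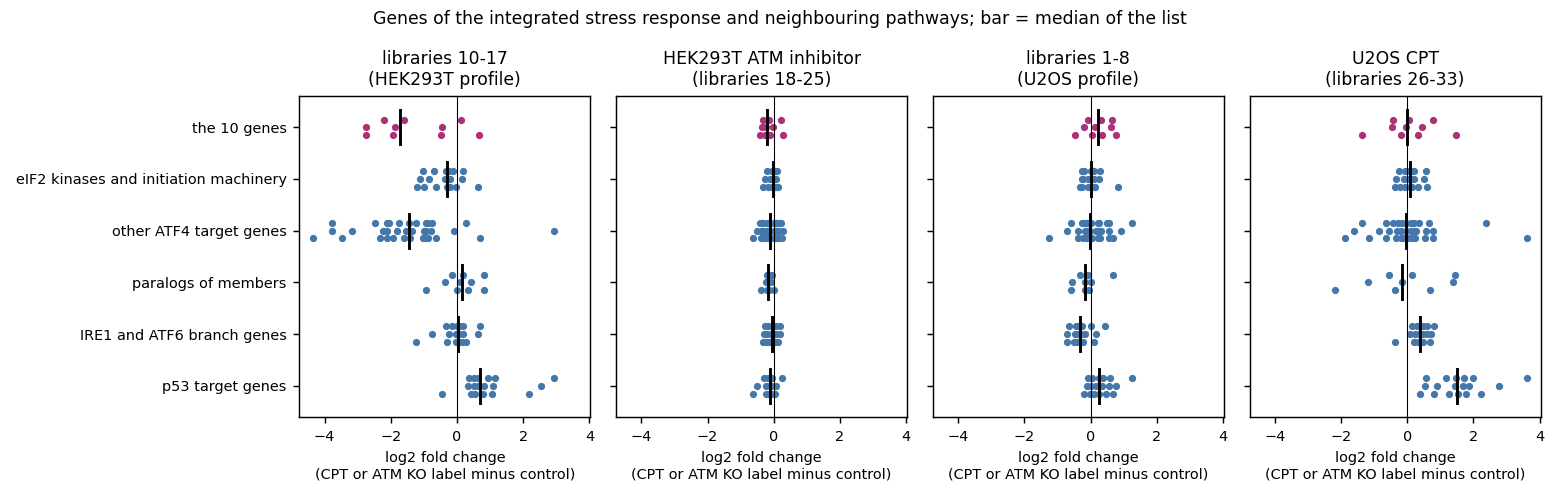
Log2 fold change (horizontal axis, arm labelled CPT or ATM KO minus control) of each tested gene of 6 lists in the 4 comparisons, 1 point a gene, with bars at the median of a list. In libraries 10 to 17 the 10 genes and the other ATF4 targets have medians of -1.74 and -1.46 while the p53 targets have a median of 0.71, and in U2OS with CPT the p53 list stands at 1.51 and the 10 genes at 0.0017.

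The members were not equally alike over the 32 libraries. After centring each gene within each set of 8 libraries, the correlation of a member with the mean of the other 9 was 0.864 for NUPR1, 0.8 for TRIB3, 0.754 for ATF4, 0.735 for CEBPB, 0.733 for CHAC1 and 0.666 for DDIT3. It was lower for DDIT4 (0.448) and SESN2 (0.432), near 0 for PPP1R15A (0.12) and negative for ATF5 (-0.149). These are descriptions over libraries that share arms and sequencing depth, without a test. Genes most like the mean of the 10 were then sought among 9578 genes of mean log2 CPM over 3. The pathway lists, the marker genes and ATM were left out of this ranking, so listed ATF4 targets such as ASNS were not candidates. The genes ranked first were SNHG29 (r = 0.907), a small nucleolar RNA host gene, CARS1 (0.882) and YARS1 (0.859), the cysteine and tyrosine tRNA synthetases, PSPH (0.83), the last enzyme of serine synthesis, and RPS14 (0.815), a ribosomal protein. Within the sets, SNHG29 was at 0.932 in libraries 10 to 17, 0.929 in the ATM inhibitor set, 0.885 in libraries 1 to 8 and 0.437 in U2OS with CPT. In U2OS with CPT, CARS1, YARS1, PSPH and RPS14 were at 0.235, 0.273, 0.49 and 0.365. PSPH was at 0.223 in libraries 1 to 8, and the remaining values of these genes ran from 0.7 to 0.954.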

How the data were processed

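RNA was isolated with the AllPrep kit, and libraries were made with the Lexogen QuantSeq 3′ mRNA method (FWD, with molecular identifiers) and sequenced on a NextSeq 500. The authors ran the Lexogen QuantSeq FWD UMI pipeline and deposited raw counts per gene for 32 libraries, without normalization. The genome build, annotation and strand setting are not given in the sources used here. The 5 summary rows (10.9% to 40.6% of a library's counts) and 92 spike-in rows (3 counts in all) were left out, and no column was unused. Symbols came from a table of Ensembl IDs and gene names for 56104 of 60107 genes, and overlapping genes from GENCODE 29.

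Each comparison of 4 against 4 libraries was fitted in R 4.3.3 with edgeR 4.0.16 (TMM, quasi-likelihood test), after genes without a count above 1 in 2 or more of its libraries were left out, and p-values were adjusted over all genes tested by Benjamini-Hochberg. Responses were compared by an interaction term over 16 libraries. Levels are CPM, and fold changes are on TMM-scaled counts, so that the ratio of 2 mean CPM can differ from them. Libraries of 1 arm differed beyond sampling noise in every pair. All 10 members were named in every comparison, with up to 3 genes of smallest adjusted p from each list. The 5 genes outside the lists that were most like the members were named too. The members and lists were chosen with earlier results of these data known, and the alternative without libraries 1 and 2 was added after seeing the data. The alternatives were each library left out, the deposited label groups, library 17 added to the ATM inhibitor controls, a single fit of all libraries, DESeq2 1.42.0, edgeR's likelihood ratio test, filtering by filterByExpr or not at all, RLE scaling, and calls by adjusted p alone. The main fit was tested on simulated counts, with changes larger than the cutoff, planted in genes of higher count, and the same spread for all genes. That test does not cover changes near the cutoff, genes of few counts or genes of wide spread. RefSeq promoter windows were searched as letters.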

Additional observations from a re-analysis of the deposited data

Results flagged for a closer look

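In 6 of 80 groups of 4 values (10 genes in 8 arms), 1 library stood apart from the other 3 by Dixon's ratio at the 95% level, where chance alone gives about 1 in 20. ATF4 was at 211.2 CPM in library 33 (U2OS DMSO), beside 144 to 154.5 CPM in the other 3. In library 8 ATF4 was at 284 CPM beside 145 to 165.5 CPM, and NUPR1 at 43.8 CPM beside 21.1 to 21.9 CPM in the other even-numbered libraries of 1 to 8. CHAC1 was at 13.4 CPM in library 3 beside 6.02 to 7.09 CPM, ATF5 at 5.04 CPM in library 25 beside 6.85 to 7.01 CPM, and TRIB3 at 5.19 CPM in library 28 beside 4.03 to 4.12 CPM.

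The response of a gene differed between 2 sets in 15 of 30 tests of the difference itself (quasi-likelihood test of edgeR, adjusted over all genes). Over all genes tested the shares that differed were 17.7%, 16.4% and 20.3%, in the order of the 3 sets of differences below. Between libraries 1 to 8 and U2OS with CPT, the log2 differences were 0.83 for ATF4, 1.10 for DDIT3 and -0.69 for SESN2. Between libraries 10 to 17 and the ATM inhibitor they were -2.08 for ATF4, -2.48 for DDIT4, -2.23 for TRIB3, -2.75 for CHAC1 and -1.29 for CEBPB. Between libraries 10 to 17 and U2OS with CPT they were -1.40 for ATF4, -1.36 for DDIT4, -1.89 for TRIB3, -3.20 for CHAC1, -1.93 for SESN2, -1.44 for CEBPB and -2.48 for NUPR1. Libraries 10 to 17 enter 2 of these 3 sets of differences, as do libraries 26 to 33.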

How the results depend on the processing

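No paired analysis was made because no label pairs a library with another. Whether libraries of neighbouring number belong to the same repeat is not given. Of the values of single members under an alternative, 1379 kept their direction and whether they passed, 30 came to pass, 7 no longer passed and 44 turned sign. For a comparison, passing meant fold change and adjusted p together, and for a difference of 2 responses adjusted p alone. In the setting with no cutoff on fold change it also meant adjusted p alone, so a value could come to pass there with its adjusted p unchanged. By adjusted p alone, 39 of 1460 lost an adjusted p under 0.05 and 25 gained one. In libraries 10 to 17 the 6 calls became 4 by the deposited label groups and stayed between 6 and 7 with a library left out. With no cutoff on fold change they became 8, beside 34.9% of all genes. In U2OS with CPT 2 members became 4 with no cutoff, beside 31.9% of all genes. In libraries 1 to 8 the 0 became 1 by the label groups and 2 with no cutoff, the latter beside 13% of all genes. Of all genes, with edgeR's filterByExpr filter 644 were called in libraries 1 to 8 in place of 974, 1461 in libraries 10 to 17 in place of 2718, 1652 in U2OS with CPT in place of 2569, and 5090 between the lines in place of 7872. With no cutoff on fold change these counts were 2415, 6785, 6091 and 12256, and the label groups called 631 in libraries 10 to 17. For the ATM inhibitor, 1 gene was called with all 32 libraries in one fit or with no cutoff, 2 by the likelihood ratio test or with no filter, and 0 to 14 with a library left out.

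In libraries 1 to 8 the label groups turned the log2 fold changes of ATF4 (to -1.35), ATF5 (0.646), CEBPB (0.0718), CHAC1 (-1.36), DDIT3 (-0.722), SESN2 (-1.39) and TRIB3 (-0.392), a setting that mixes both cell line profiles in 1 arm. TRIB3 there was also turned by DESeq2 (-0.00453), CHAC1 of the ATM inhibitor by adding library 17 to the controls (0.178), and the DDIT3 difference of libraries 10 to 17 from U2OS with CPT by filterByExpr (0.0291), and the cause was not tested. With a library left out, values that straddled 0 ran over -0.073 to 0.38 (ATF4), -0.298 to 0.0399 (ATF5), -0.19 to 0.15 (CHAC1) and -0.39 to 0.024 (DDIT3) for the ATM inhibitor, -0.0698 to 0.16 (ATF5) and -0.18 to 0.075 (TRIB3) for U2OS with CPT, -0.202 to 0.0103 (CEBPB), -0.024 to 0.48 (CHAC1) and -0.16 to 0.19 (TRIB3) for libraries 1 to 8, and -0.024 to 0.32 (PPP1R15A) for libraries 10 to 17. Differences that did so were those of CEBPB (-0.0078 to 0.196), CHAC1 (-0.44 to 0.033), NUPR1 (-0.0402 to 0.43) and TRIB3 (-0.11 to 0.24) between libraries 1 to 8 and U2OS with CPT, and of DDIT3 (-0.24 to 0.16) between libraries 10 to 17 and U2OS with CPT. Depth limits NUPR1, TRIB3, DDIT3 and CHAC1 most, which had 4, 5, 5 and 9 counts in their lowest libraries. Levels of 4 libraries per arm, labels that contradict the RNA in 14 libraries, and the unknown strand setting limit the rest.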
